A study of Mus musculus with 4 samples.

Results

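The mouse mammary epithelium has a basal layer and an inner luminal layer, and 10 genes for secreted Wnt proteins and secreted Wnt inhibitors were followed across its lineages. They were the ligands Wnt4, Wnt5a, Wnt5b, Wnt6, Wnt7b, Wnt10a and Wnt11 and the inhibitors Wif1, Sfrp1 and Dkk3, which are 10 of the 27998 genes in the count tables and were taken by symbol. Each cell was placed as basal, luminal progenitor (LP) or mature luminal (ML), and every member was read in each lineage at each stage. Single-cell RNA-seq on the 10X Chromium platform had been run on the total epithelium (Lin–CD24+ cells) of FVB/NJ mice at puberty, aged 5 weeks, and in adults, aged 10 weeks, at estrus or diestrus. Glands of 2 mice were pooled for each adult phase, and no genetic change or treatment was given in any group. Each stage was 1 library, so differences between stages carry counting error only, and a difference between stages cannot be told apart from a difference between preparations.

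Wnt ligands are lipid-modified secreted proteins that bind Frizzled receptors and their co-receptors on nearby cells. In the canonical branch this stabilises β-catenin, which acts with TCF/LEF factors on target genes, while other ligands, Wnt5a and Wnt11 among them, act mainly through branches that do not need β-catenin. Wif1 and Sfrp1 bind Wnt proteins outside the cell, and Dkk3 is a divergent member of the Dickkopf family. In the mammary gland, canonical Wnt signals sustain basal stem cells, and Wnt4 is a target of progesterone that relays the hormone from luminal cells to their neighbours.

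The puberty library held 5428 cells and 25365324 counts, the estrus library 2729 cells and 10962454 counts, and the diestrus library 2439 cells and 11868593 counts. A second puberty table shared 5387 barcodes with the first, 99.2% of them, and the counts per cell of the shared barcodes correlated at 0.997, so the tables were counted as 1 library. In order of puberty, estrus and diestrus there were 1144, 1309 and 1055 basal cells, 1770, 472 and 566 LP cells and 2181, 785 and 680 ML cells. All 8 markers of each lineage had their highest level in their own class in all 3 libraries, and the members took no part in placing the cells. Median counts per cell ran from 2544 to 3411 in basal, 3182.5 to 4062 in LP and 4146 to 4668 in ML cells. Summed immune markers stayed at 0.292 to 2.09 CPM in the 3 lineages, where CPM is a gene's summed counts in a class scaled to 1000000 counts of that class. Summed fibroblast markers were 249 to 290 CPM in basal and 251 to 709 CPM in ML cells, nearly all of it Dcn, against 1.09 to 1.82 CPM in LP cells, and their part in the results was not tested.

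The sequence before the annotated start is shown for Wnt6 and Wif1, whose counts were almost all basal, for Wnt5b, highest in LP cells, and for Wnt4, highest in ML cells, so that a start from each lineage can be read beside the levels. Sequences are from RefSeq (GRCm38.p6), in which 5 of the 10 members were matched, and each runs 5′ to 3′ on the strand of the gene up to the last base before the annotated gene. Capitals mark matches on either strand to any of 5 motifs, and overlapping matches share letters. The GC box that Sp1 family factors bind was searched as GGGCGG, and the TATA box of core promoters was searched in the form TATAAA. The E-box read by Snail and related repressors was taken to be CACCTG. The site of the TCF/LEF factors, which carry canonical Wnt signals to the genome, was taken to be CTTTGA. For the progesterone and glucocorticoid receptors the half-site searched was TGTTCT.
Wnt6, basal, chr1:74771642-74771891, plus strand: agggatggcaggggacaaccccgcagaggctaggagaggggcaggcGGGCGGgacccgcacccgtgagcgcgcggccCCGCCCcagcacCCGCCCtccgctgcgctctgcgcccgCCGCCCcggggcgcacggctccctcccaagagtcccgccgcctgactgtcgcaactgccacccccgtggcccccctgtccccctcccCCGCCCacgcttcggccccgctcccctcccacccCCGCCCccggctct
Wif1, basal, chr10:121033754-121033959, plus strand: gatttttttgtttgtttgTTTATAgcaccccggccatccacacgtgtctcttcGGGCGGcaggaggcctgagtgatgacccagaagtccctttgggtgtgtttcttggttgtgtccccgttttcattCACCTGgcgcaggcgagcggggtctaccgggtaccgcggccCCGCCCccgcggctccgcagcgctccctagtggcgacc
Wnt5b, LP, chr6:119544348-119544597, minus strand: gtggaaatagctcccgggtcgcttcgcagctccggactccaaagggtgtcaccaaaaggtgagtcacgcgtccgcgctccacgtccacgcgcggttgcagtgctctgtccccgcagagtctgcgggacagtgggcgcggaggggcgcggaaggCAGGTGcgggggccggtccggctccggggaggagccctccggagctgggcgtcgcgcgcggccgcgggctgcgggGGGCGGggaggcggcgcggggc
Wnt4, ML, chr4:137277385-137277488, plus strand: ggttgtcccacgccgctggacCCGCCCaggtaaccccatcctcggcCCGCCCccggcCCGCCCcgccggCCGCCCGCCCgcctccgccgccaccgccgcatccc
The 250 bases before the Wnt6 start held 6 GC boxes and none of the other motifs. The 206 bases before Wif1 held 2 GC boxes, 1 E-box and 1 match to the TATA box letters. That match was on the opposite strand (TTTATA) and near the upstream end, away from the start. The table gives 3 starts for Wnt5b, and the farthest upstream, printed here, held 1 GC box and 1 E-box, and the 104 bases before Wnt4 held 5 GC boxes and no other match. Among 32851 promoters of 250 bases in the same table, 32.7% held a GC box, 12.4% a TATA box, 17.2% an E-box, 13.8% a TCF/LEF motif and 16.1% a hormone receptor half-site. The other starts of Wnt5b differed, since start 2 held 1 half-site and no other match, and start 3 held 2 GC boxes, 1 E-box and 1 TCF/LEF motif. The first of the 2 starts of Wnt11 held 4 GC boxes, 1 TATA box and 1 TCF/LEF motif, and the second held no match.

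Wnt6 lies on chromosome 1 at 74771892 to 74785322 and Wnt10a follows it at 74791516 to 74804179 on the same strand (GRCm38), with 6193 bases and 0 annotated genes between them. Both were basal. Wnt6, a ligand of embryonic epithelia, was read at 94.9 CPM in basal cells at puberty (95% exact Poisson interval 85.8 to 104.7), 82.9 CPM at estrus (74.6 to 91.8) and 102.8 CPM at diestrus (93.9 to 112.3). LP cells had 0.923, 3.27 and 0.73 CPM in the same order and ML cells 0.263, 0 and 0.877 CPM. The basal and luminal levels were far apart in all 3 libraries. Basal cells exceeded the mean of LP and ML cells by 6.97 on the log2 scale (SE 0.29, n = 3 libraries, edgeR adjusted p = 7.862e-09), while the LP to ML difference of 2.07 was not called (edgeR adjusted p = 0.0523).

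Wnt10a, a canonical ligand of skin and tooth epithelium, stood at 48.3 CPM in basal cells at puberty (41.8 to 55.4), 49.3 CPM at estrus (42.9 to 56.3) and 88.8 CPM at diestrus (80.6 to 97.7). Its luminal levels were 0.528, 0 and 0.73 CPM in LP cells and 0.0878, 0 and 1.17 CPM in ML cells. The puberty and estrus intervals overlapped, and the diestrus interval lay above both. The basal excess was 7.07 on the log2 scale (SE 0.31, n = 3, edgeR adjusted p = 1.041e-08).

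Wnt11, which acts mainly outside the β-catenin branch, was a sparse basal transcript. Basal cells held 27 counts at puberty, 41 at estrus and 29 at diestrus, or 6.49, 9.31 and 6.06 CPM. LP cells held 0 counts in all 3 libraries, and ML cells held 7, 0 and 0 counts. Against the floor of 3 counts over the 3 LP libraries, the basal level was at least 29.4-fold higher. The basal excess was called (edgeR adjusted p = 9.926e-05), and its fitted size is not given because the LP libraries were all at 0. The antisense genes Gm29539 and Gm8398 overlap Wnt6 and Wnt11, Gm2670 overlaps Wnt5a, Fbxl14 overlaps Wnt5b and AU022754 overlaps Wnt7b. No member overlaps a gene on its own strand.

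**Figure D1:**
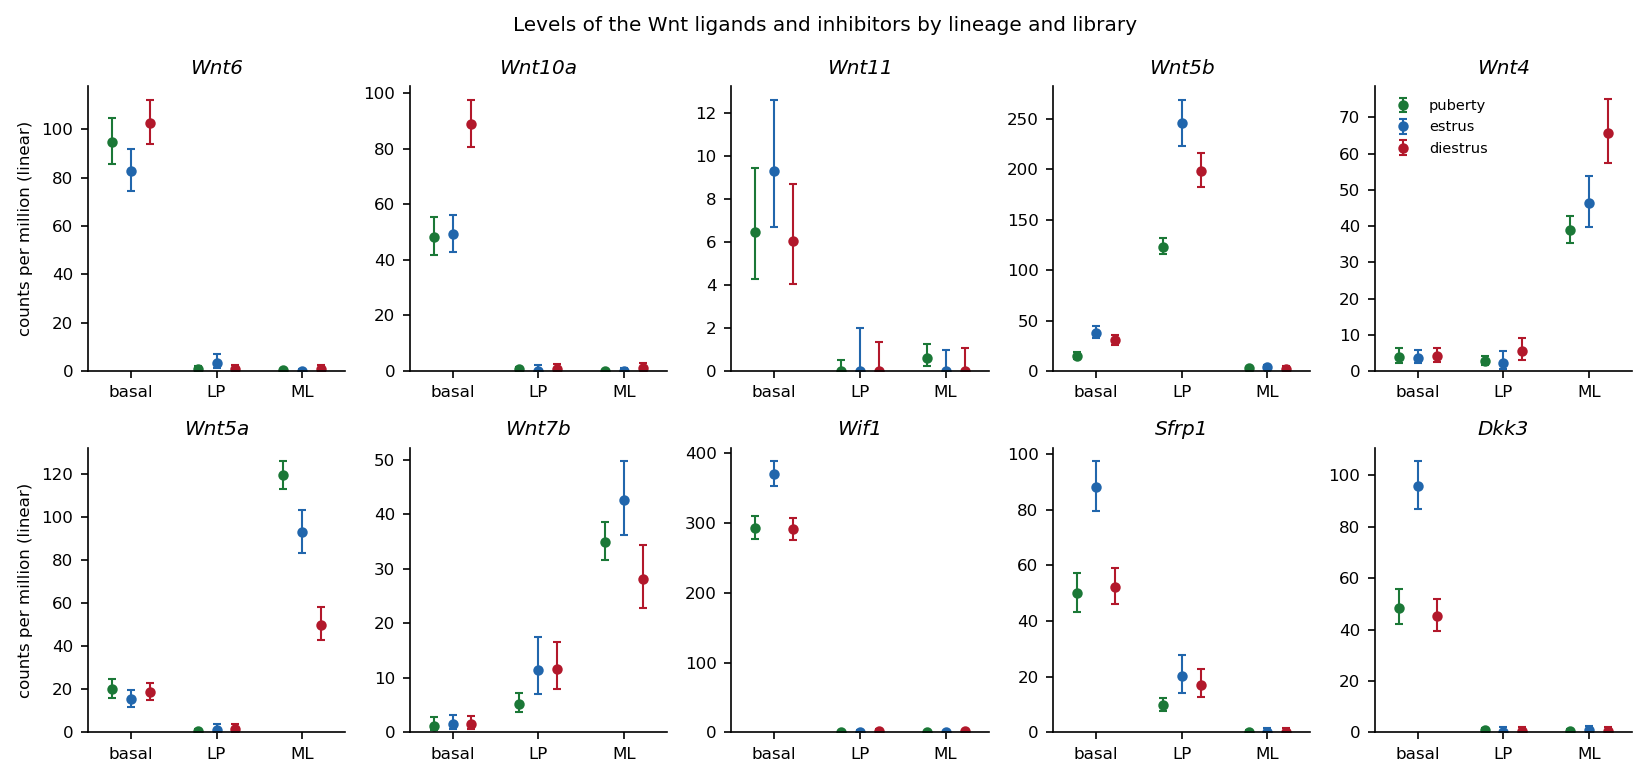
Level of each member in CPM (linear axis) in basal, LP and ML cells. A point is given for each library (puberty, estrus, diestrus) and a bar for the 95% exact Poisson interval. Wnt6, Wnt10a, Wnt11, Wif1, Sfrp1 and Dkk3 were highest in basal cells, Wnt5b in LP cells and Wnt4, Wnt5a and Wnt7b in ML cells in 3 of 3 libraries.

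Wnt5b (chromosome 6, 119432531 to 119544347, minus strand), a close paralogue of Wnt5a, was the LP ligand. LP cells had 123.5 CPM at puberty (115.7 to 131.6), 245.7 CPM at estrus (223.5 to 269.4) and 198.6 CPM at diestrus (182.3 to 216). Basal cells had 14.9, 37.9 and 30.7 CPM, and ML cells 2.46, 3.75 and 2.34 CPM. The order LP, basal, ML held in every library with no overlap between lineages. LP exceeded ML cells by 6.12 on the log2 scale (SE 0.21, n = 3, edgeR adjusted p = 6.261e-09). Pairwise fits, added after the levels had been seen, gave basal minus LP cells as -2.98 and basal minus ML cells as 3.14 on the log2 scale (edgeR adjusted p = 8.99e-08 and 4.252e-07). The basal to mean luminal difference was therefore small at 0.08 and was not called (edgeR adjusted p = 0.681), and with cells placed by Leiden clusters it was -1.03 and was called toward luminal (edgeR adjusted p = 6.187e-05).

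Wnt4 (chromosome 4, 137277489 to 137299726), Wnt5a (chromosome 14, 28504750 to 28527448) and Wnt7b (chromosome 15, 85535437 to 85582473, minus strand) were the ML ligands. Wnt4 was at 39 CPM in ML cells at puberty (35.5 to 42.8), 46.3 CPM at estrus (39.7 to 53.8) and 65.8 CPM at diestrus (57.5 to 75). Basal cells had 3.84, 3.63 and 4.18 CPM and LP cells 2.64, 2.18 and 5.48 CPM, ranges that overlapped each other and not that of ML cells. LP minus ML was -3.67 (SE 0.22, n = 3, edgeR adjusted p = 2.158e-07), basal minus mean luminal was -1.84 (SE 0.22, edgeR adjusted p = 3.233e-05), and basal minus LP in an added fit was -0.01 (SE 0.28, edgeR adjusted p = 0.986). Of the 31-base words in the last 300 bases of Wnt4, where 3′ libraries read a transcript, 28.5% also occur in other genes, Glo1 most often, so part of its counts may have been split or dropped. No other member had more than 0.37% of such words elsewhere.

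Wnt5a, a ligand of planar polarity and ductal patterning, reached 119.4 CPM in ML cells at puberty (113.2 to 126), 92.9 CPM at estrus (83.4 to 103.2) and 50 CPM at diestrus (42.8 to 58.1). Basal cells had 20.2, 15.4 and 18.8 CPM and LP cells 0.791, 1.09 and 1.46 CPM. The order was thus ML, basal, LP in 3 of 3 libraries, the reverse of the order of Wnt5b between the luminal lineages. LP minus ML was -6.27 (SE 0.36, n = 3, edgeR adjusted p = 1.608e-07). The added pairwise fits gave basal minus LP as 4.06 (SE 0.40, edgeR adjusted p = 1.127e-05) and basal minus ML as -2.21 (SE 0.22, edgeR adjusted p = 8.593e-06). Basal minus mean luminal was 0.92 (SE 0.28) and missed the threshold of 0.01 (edgeR adjusted p = 0.0177).

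Wnt7b, a ligand of lung and kidney epithelium, was at 34.9 CPM in ML cells at puberty (31.5 to 38.5), 42.6 CPM at estrus (36.2 to 49.7) and 28.1 CPM at diestrus (22.7 to 34.3). LP cells had 5.28, 11.4 and 11.7 CPM and basal cells 1.2, 1.59 and 1.46 CPM, so this ligand was read in both luminal lineages and hardly in basal cells. LP minus ML was -1.82 (SE 0.24, n = 3, edgeR adjusted p = 0.0001009) and basal minus mean luminal was -3.71 (SE 0.30, edgeR adjusted p = 1.433e-06).

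The inhibitors were all highest in basal cells. Wif1 (chromosome 10, 121033960 to 121100650), which binds Wnt ligands through its WIF domain, stood at 292.4 CPM at puberty (276.2 to 309.3), 370 CPM at estrus (352.3 to 388.4) and 290.5 CPM at diestrus (275.5 to 306.2) in basal cells. The 6 luminal values lay between 0.528 and 2.56 CPM. Basal minus mean luminal was 8.17 (SE 0.23, n = 3, edgeR adjusted p = 4.266e-10), and LP and ML cells were not told apart (0.41, edgeR adjusted p = 0.639).

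Sfrp1 (chromosome 8, 23411502 to 23449632), whose cysteine-rich domain resembles that of Frizzled, had 50 CPM in basal cells at puberty (43.4 to 57.2), 88.3 CPM at estrus (79.7 to 97.5) and 52.2 CPM at diestrus (46 to 59.1). LP cells had 9.89, 20.2 and 17.2 CPM, and ML cells 0.263, 0.268 and 0.292 CPM. The 3 lineages were apart in every library, and Sfrp1 was the inhibitor with a level in LP cells. LP minus ML was 5.75 (SE 0.32, n = 3, edgeR adjusted p = 1.342e-07), basal minus mean luminal was 4.71 (SE 0.18, edgeR adjusted p = 3.977e-09), and basal minus LP in the added fit was 1.84 (SE 0.17, edgeR adjusted p = 5.199e-06). Dkk3 (chromosome 7, 112116017 to 112159057, minus strand) had 48.5 CPM in basal cells at puberty (42.1 to 55.7), 96 CPM at estrus (87.1 to 105.6) and 45.4 CPM at diestrus (39.5 to 51.8), against 0 to 0.923 CPM in luminal cells. As for Sfrp1, its estrus interval lay above those of puberty and diestrus. Basal minus mean luminal was 6.30 (SE 0.26, n = 3, edgeR adjusted p = 7.971e-09).

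Across the family, 6 of 10 members were higher in basal and 2 in luminal cells at an edgeR adjusted p under 0.01. Of the 11627 genes tested, 22.1% were higher in basal and 17.9% in luminal cells by the same rule. Between the luminal lineages, 2 members were higher in LP and 3 in ML cells, where 15% and 12.9% of all genes were called, and 5 were not called. In the added pairwise fits 7 members were higher in basal than LP cells (17% of all genes) and 2 in LP cells (15.7%), and 7 were higher in basal than ML cells (23.5%) and 3 in ML cells (19.6%). The median log2 difference of the members was 5.47 for basal minus luminal and 0.34 for LP minus ML. Over all genes tested these medians were 0.02 and 0.03. The first was 4.80 with Wnt11 set at its bound against LP cells (29.4-fold). That bound leaves out ML cells, so it is not a lower bound for the luminal mean. Each called member had its direction in 3 of 3 libraries. Lineages were drawn from other genes of the same cells, so these p-values measure the spread of 3 libraries and are not independent of how the cells were placed.

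**Figure D2:**
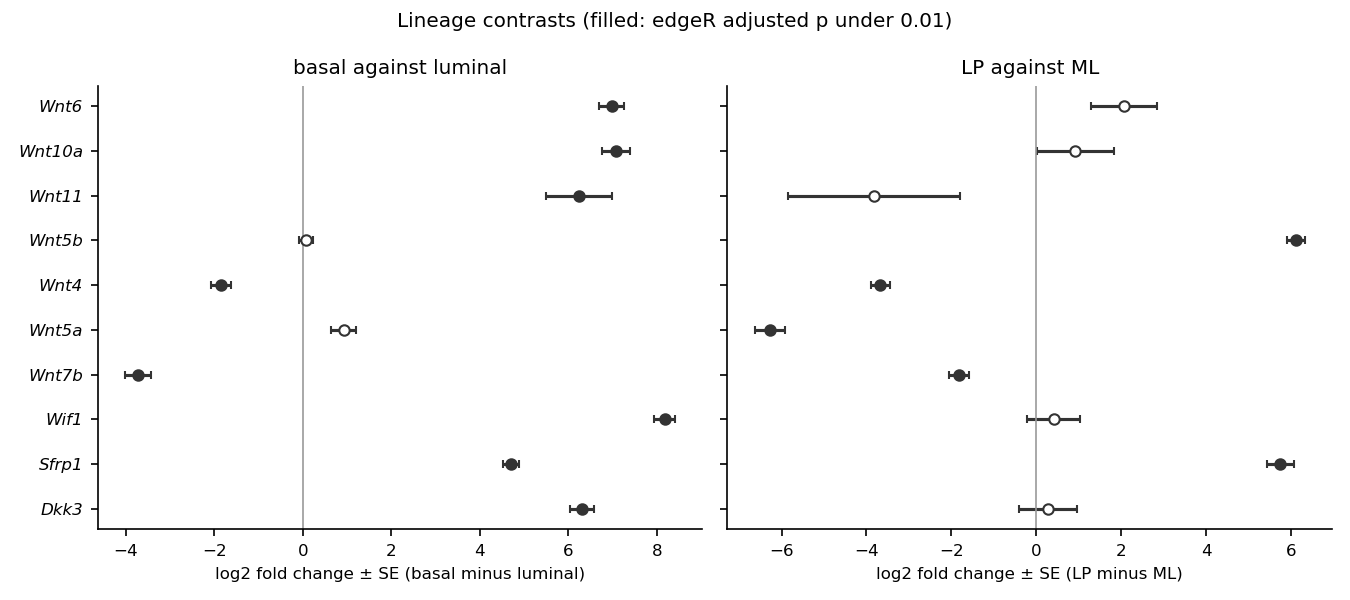
Fitted log2 difference of each member for basal minus the mean of LP and ML cells and for LP minus ML cells, with bars of 1 SE from edgeR over 3 libraries. Wif1, Wnt10a, Wnt6 and Dkk3 lay above 6 in the first comparison, as did Wnt11, whose place depends on the prior count because LP cells had 0 counts of it, and Wnt5b and Sfrp1 stood opposite Wnt4, Wnt5a and Wnt7b in the second.

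Free RNA in droplets can carry counts into cells that do not make a transcript. Each member's level in another lineage was therefore taken as a percent of its leading level. It was read beside the same percent for the signature genes of the leading lineage. Those genes were picked in these same cells as at least 2-fold higher than in both other lineages, and they placed the cells. Their percents are thus low by selection and do not measure free RNA, so the part of free RNA was not tested. Wnt6, Wnt10a, Wif1 and Dkk3 in luminal cells were at 0 to 1.9% of their basal level in the 3 libraries, except Wnt6 in LP cells at estrus (3.94%, 6 counts), and the medians of basal signature genes ranged from 0.348 to 1.53%. Members with a secondary lineage stood above such medians, and some within the upper spread of the signature genes. Wnt5a in basal cells was at 16.9, 16.6 and 37.6% of its ML level (puberty, estrus, diestrus), where ML signature genes had medians of 2.27 to 3.93% and 95th percentiles of 20.7, 15.8 and 20.2%. Wnt5b in basal cells was at 12.1, 15.4 and 15.5% of its LP level, where LP signature genes had medians of 2.88 to 3.89% and 95th percentiles of 24.7, 22.6 and 26.4%, so it lay within their spread in every library. Sfrp1 in LP cells was at 19.8, 22.8 and 32.8% of its basal level, where basal signature genes had 95th percentiles of 8.09, 6.58 and 8.47%. Wnt7b in LP cells was at 15.1, 26.9 and 41.6% of its ML level, where ML signature genes had medians of 3.44 to 4.93% and 95th percentiles of 19.8, 16.4 and 18.2%. At puberty both Wnt5a and Wnt7b thus lay below the 95th percentile.

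By cells rather than counts, every member was detected in the largest share of cells in its leading lineage in 3 of 3 libraries. At the deposited depth Wif1 was detected in 44.1, 49.2 and 53.5% of basal cells at puberty, estrus and diestrus, against 0.212 to 0.882% of luminal cells. Wnt5b was detected in 32.4, 49.4 and 55.5% of LP cells and in 0.871, 1.53 and 1.18% of ML cells, which are deeper. Depth differed between libraries, so cells were also thinned to 2000 counts each, which kept 878, 950 and 862 basal, 1597, 391 and 498 LP and 2032, 718 and 615 ML cells. Wif1 was then at 35.4, 40.9 and 36.8% and Wnt5b at 21.7, 38.4 and 31.7%, so the order of estrus and diestrus turned for both and followed the CPM. Thinned shares of Wnt6 were 12.6, 13.7 and 15.5%, of Wnt10a 8.77, 9.05 and 13.7%, and of Dkk3 9.45, 17.9 and 8.47%. Wnt4 was detected in 7.04, 9.75 and 12.8% of thinned ML cells and Wnt5a in 16.6, 14.8 and 8.62%. Sfrp1 stood at 7.4, 15.3 and 9.63% of thinned basal cells, Wnt7b at 5.86, 7.52 and 6.34% of thinned ML cells and Wnt11 at 1.48, 2.32 and 0.58% of thinned basal cells.

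**Figure D3:**
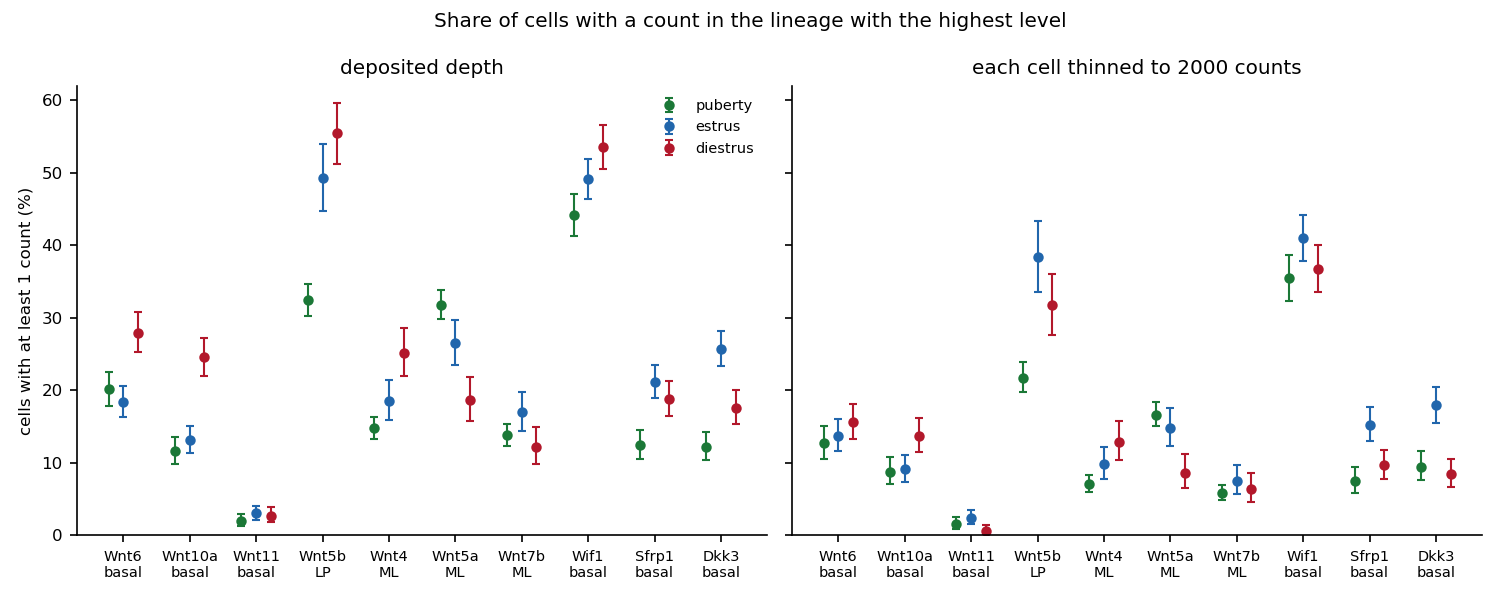
Percent of cells with at least 1 count of each member in its leading lineage, by library, with 95% Clopper-Pearson intervals. The left panel is at the deposited depth and the right panel after thinning to 2000 counts a cell. After thinning, Wif1 was detected in the most basal cells (35.4 to 40.9%). Wnt5b was then at 38.4 and 31.7% of LP cells in the adult libraries against 21.7% at puberty.

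Grouped by role, the 7 ligands were read in all lineages and the 3 inhibitors mostly in basal cells. At least 1 of the 7 ligands was detected in 26.1, 31.5 and 34.8% of thinned basal cells, 23.5, 41.2 and 33.9% of LP cells and 26.8, 29.9 and 26% of ML cells. At least 1 of the 3 inhibitors was detected in 47.5, 58.9 and 47.9% of basal cells, in 2.25, 4.86 and 4.02% of LP cells and in 0.345, 0.557 and 0.163% of ML cells. Basal cells with counts of 2 or more inhibitors made up 4.78% at puberty, 13.5% at estrus and 6.26% at diestrus.

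Between stages, 13 of the 30 member and lineage pairs reached 10 CPM in a stage and were compared on values scaled by TMM within the lineage, with a pseudocount of 1 CPM. With 1 library a stage there was no test, and a ratio of at least 2-fold was taken as a call. From estrus to diestrus, 0 of 13 pairs were at least 2-fold higher or lower. Over all genes, 6.31% of basal, 7.13% of LP and 4.29% of ML genes were at least 2-fold higher at diestrus, and 3.33, 4.76 and 2.23% were lower. The widest ratios were those of Wnt10a, 0.98 on the log2 scale (1.97-fold higher at diestrus), and Dkk3, -0.92. Wnt6 was at 0.45, Wif1 at -0.20 and Sfrp1 at -0.60 in basal cells, Wnt4 at 0.68, Wnt5a at -0.70 and Wnt7b at -0.40 in ML cells, and Wnt5b at -0.31 in LP cells. The basal ligands Wnt6 and Wnt10a thus had diestrus values above and the 3 inhibitors values below those of estrus. The exception was Wif1, at 0.19 without cycling cells and -0.017 with thinned cells. The third basal ligand, Wnt11, was under 10 CPM and not compared. Its basal level was 6.06 CPM at diestrus and 9.31 CPM at estrus, with overlapping intervals. Cycling cells made up 5.88% of basal cells at estrus and 23% at diestrus, and without them the Wnt10a ratio was 0.44, while with thinned cells it was 0.61. A bulk level does not separate fewer cells with a transcript from less of it in each cell.

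Against estrus, 1 pair was at least 2-fold lower at puberty, Wnt5b in basal cells with a log2 ratio of -1.08, and 0 were higher. The ratio was -0.88 with Leiden clusters and -0.93 with a pseudocount of 5 CPM, which end the call, and the pair is not compared at a minimum of 50 CPM. The share of all basal genes that were lower at puberty by this rule was 5.1%, with 3.22% in LP and 2.07% in ML cells, and 7, 5.6 and 5.44% were higher. Wnt5b in LP cells (-0.70), Sfrp1 in basal and LP cells (-0.59 and -0.69), Dkk3 in basal cells (-0.75) and Wnt7b in LP cells (-0.73) had puberty values below those of estrus as well, and Wnt5a in ML cells was above (0.66). Against diestrus, 1 pair was at least 2-fold higher at puberty, Wnt5a in ML cells at 2.57-fold, and 0 were lower. At puberty 4.01% of all ML genes were higher than at diestrus by this rule (4.86% in basal and 5.56% in LP cells), and 3.35, 3.91 and 2.02% of basal, LP and ML genes were lower. Wnt10a (-0.79) and Wnt4 (-0.62) had lower values at puberty than at diestrus. The Wnt10a ratio was -0.27 without cycling cells and -0.43 with thinned cells. With only cells of at least 1000 genes and under 10% mitochondrial counts it was -1.21. Without TMM the median of all genes moved by -0.07 to -0.30 in the ratios to puberty, and the ratios named here kept their sign.

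**Figure D4:**
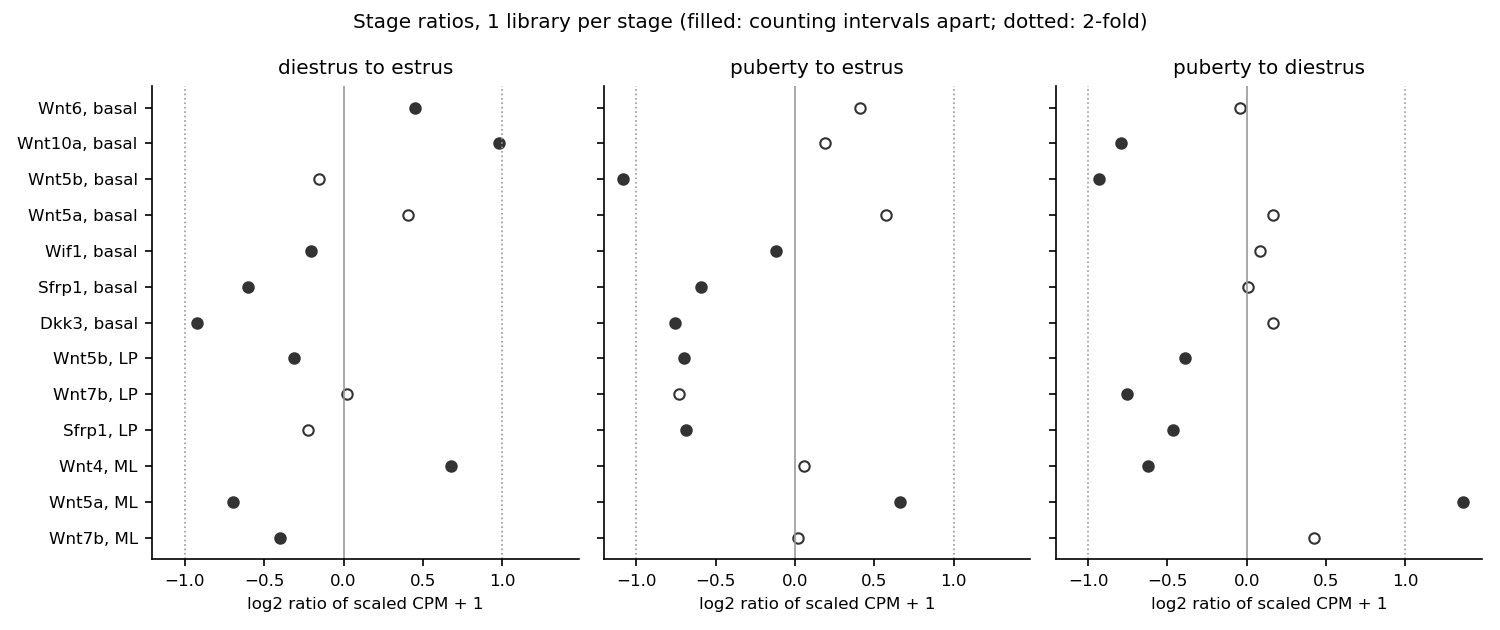
Log2 ratio of each member between stages in the lineages where it reached 10 CPM (TMM-scaled CPM plus 1), with dotted lines at 2-fold. Wnt5b in basal cells (puberty to estrus, -1.08) and Wnt5a in ML cells (puberty to diestrus, 1.36) were the 2 ratios past 2-fold.

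Cycling cells, those with counts of at least 3 of 10 cell cycle genes, made up 13.9, 5.88 and 23% of basal cells, 7.97, 4.66 and 19.3% of LP cells and 9.17, 8.79 and 12.1% of ML cells at puberty, estrus and diestrus. Wnt6 stood at 162.6 CPM in cycling and 70.4 CPM in other basal cells at puberty, 150 and 70.2 CPM at estrus and 139.9 and 76.8 CPM at diestrus, or 2.29-, 2.12- and 1.81-fold higher. In every library 38.7% of all basal genes were higher in cycling cells to any extent, and 4.31% at least 2-fold. Dkk3 was lower in cycling basal cells, at 24.4 against 57.3 CPM, 38.6 against 106.9 CPM and 25.4 against 59.4 CPM, which was over 2-fold in each library, where 2.36% of all basal genes were. Cycling basal cells also carried more counts, with means of 6963.5, 9089.6 and 8117.1 a cell against 3102.1, 3007.6 and 3462.9 in the others. Among basal cells with at least 5000 counts, an added comparison, the Wnt6 ratios were 1.45, 1.30 and 1.27 with overlapping intervals, and Dkk3 was 1.06-, 1.96- and 1.51-fold lower, with intervals apart at estrus.

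Wnt10a and Wif1 differed between libraries in this split. Wnt10a stood at 42.5 CPM in cycling and 50.4 CPM in other basal cells at puberty and at 34.3 and 52.1 CPM at estrus, but at 123.2 and 64.7 CPM at diestrus. Among cells with at least 5000 counts, cycling cells were higher at puberty (41.1 against 13.4 CPM) and diestrus (128.5 against 87.2 CPM), with intervals apart, and lower at estrus (35.6 against 48 CPM). Wif1 was 2.33-fold lower in cycling cells at diestrus (162.7 against 380.2 CPM, and 1.63-fold lower among the deeper cells) and near level at puberty and estrus, though 1.38-fold higher among the deeper puberty cells, with intervals apart. In LP cells Wnt5b was lower in cycling cells in all 3 libraries, by 1.53-, 1.57- and 1.66-fold (1.06-, 1.53- and 1.37-fold among the deeper cells, with overlapping intervals), as were 18% of all LP genes to any extent. In ML cells Wnt4 was 1.75- and 2.27-fold lower in cycling cells at puberty and estrus and level at diestrus (65.7 against 65.8 CPM).

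**Figure D5:**
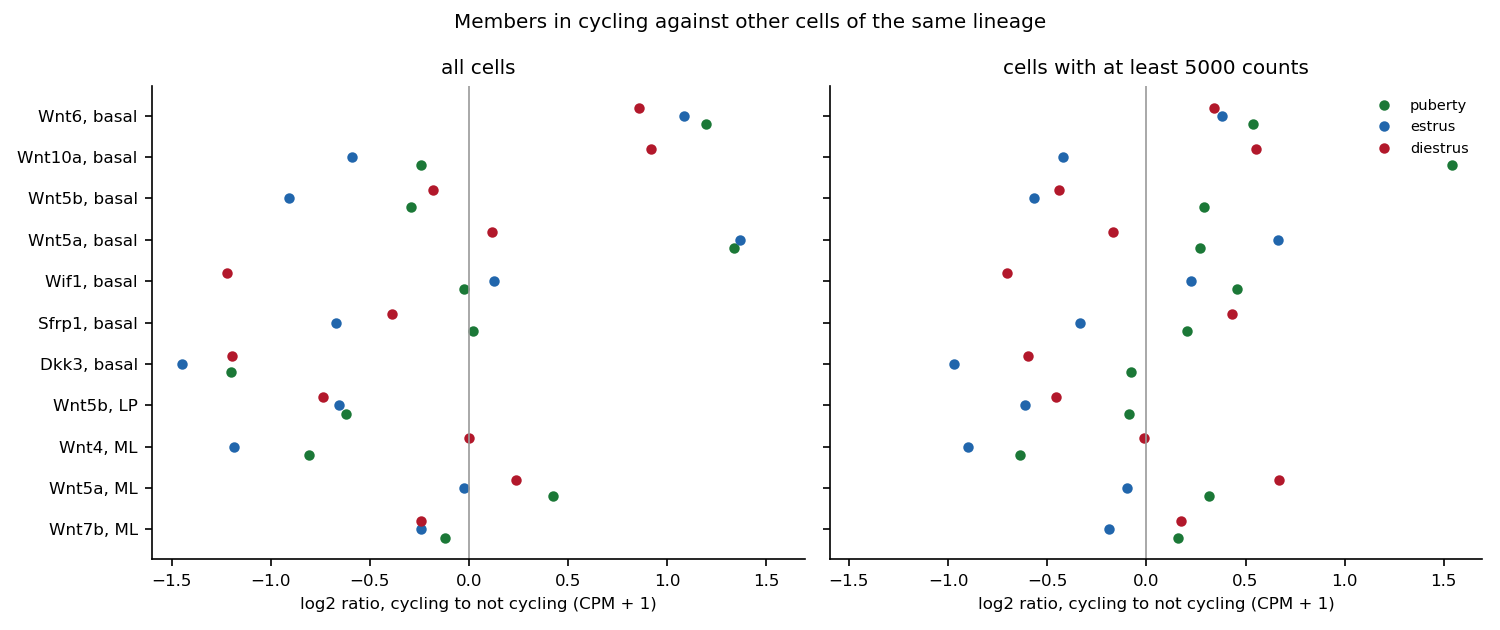
Log2 ratio of CPM plus 1 in cycling to other cells of the same lineage, with a point for each library. The left panel holds all cells and the right panel cells with at least 5000 counts. Among the deeper cells Dkk3 was near level at puberty (1.06-fold lower). Wnt6 was higher and Dkk3 lower in cycling basal cells in all 3 libraries, while Wnt10a was higher and Wif1 lower at diestrus.

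Wnt4 was read beside the progesterone receptor gene Pgr in ML cells. After thinning, Wnt4 was detected in 4.89% of 184 Pgr-positive and 7.25% of 1848 Pgr-negative ML cells at puberty, 18.9% of 37 and 9.25% of 681 at estrus, and 19.2% of 52 and 12.3% of 563 at diestrus. The 95% intervals overlapped in each library, and 0 of the 3 ML ligands had a higher share in Pgr-positive cells in all 3 libraries. At the deposited depth 3 of 3 did, where a deeper cell is more likely to show both transcripts.

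Of 81 further genes of the pathway, listed by role with earlier results of these data known, 48 were tested. In basal cells 29 of them were higher and in luminal cells 5, and 14 were not called, where 22.1% and 17.9% of all genes were called in these directions. By role, 10 of 15 receptors and co-receptors, 4 of 5 genes of receptor turnover and both secretion genes were higher in basal cells. So were 5 of 6 feedback or target genes, namely Axin2, Nkd1, Nkd2, Procr and Myc. The medians of these groups, in this order, were 1.84, 2.89, 1.73 and 3.55 on the log2 scale against 0.02 for all genes. Of 4 other genes listed as secreted inhibitors and tested, 2 were higher in basal cells, 1, Dkkl1, in luminal cells, and 1 was not called. Whether Dkkl1 inhibits Wnt signals was not tested. Of 16 genes acting in the cytoplasm or nucleus, 6 were higher in basal and 3 in luminal cells (median 0.06). Among the genes higher in basal cells, the 5 with the smallest adjusted p were the binding protein Igfbp4 (5.64), the Dishevelled antagonist Nkd1 (7.44), the secreted inhibitor Sostdc1 (7.44), the R-spondin receptor Lgr6 (3.34) and the co-receptor Ptk7 (1.74). Those higher in luminal cells were the Dickkopf-like Dkkl1 (-6.84), the β-catenin destruction scaffold Apc (-0.996), the β-catenin co-activator Bcl9l (-0.88), the cyclin gene Ccnd1 (-0.93) and the TCF factor Tcf7l2 (-0.60), with edgeR adjusted p from 6.496e-10 to 0.00937. The luminal side of this fit was the mean of LP and ML cells. Tcf7l2 was high in LP cells alone (44.19, 80.07 and 46.37 CPM). It was at 13.35, 16.07 and 11.7 CPM in ML and 14.41, 26.79 and 18.39 CPM in basal cells. Apc was highest in ML cells (37.15, 27.85 and 14.62 CPM). In LP cells it was at 13.32, 8.17 and 9.127 CPM, against 12.73, 7.264 and 6.688 CPM in basal cells. Ccnd1 in ML cells was below basal cells at diestrus (121.9 against 158 CPM). None of the 12 other Wnt ligands listed passed the filter on low counts. Wnt9a, with 44 counts, had the most of them. It was at 7.26 CPM in basal cells at estrus, 0.48 CPM at puberty and 1.25 CPM at diestrus, and at most 0.365 CPM in luminal cells.

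Between the luminal lineages 7 of the 48 genes were higher in LP and 5 in ML cells, and 36 were not called, shares near those of all genes (15% and 12.9%). Higher in LP cells were Lgr6 (5.04), Tcf7l2 (2.18), the inhibitor Sfrp2 (7.62), the receptor Fzd1 (3.12) and Igfbp4 (2.41). Sfrp2 stood at 42.7, 69.2 and 23.7 CPM in LP cells, at 4.08, 7.26 and 11.9 CPM in basal cells and at 0.878 CPM or less in ML cells, so that LP cells held 2 members of the Sfrp family. Higher in ML cells were the receptors Fzd4 (-2.66), Fzd10 (-3.64) and Ror2, a receptor of Wnt5a, as well as Apc (-1.14) and Wls (-1.02), with edgeR adjusted p from 0.0001426 to 0.00145. Ror2 was at 0 counts in LP cells in all libraries and at 3.69, 2.41 and 1.17 CPM in ML cells. Its level was highest in basal cells, at 12.97, 3.405 and 5.016 CPM. Wls, the carrier that takes Wnt ligands to the cell surface, had 83.1, 126 and 90.3 CPM in basal, 44.6, 67.2 and 50.9 CPM in ML and 20.1, 25.1 and 23.4 CPM in LP cells. Its order basal, ML, LP was the same at each stage.

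The genes whose pattern was most like each member were named by the Pearson correlation of log2(CPM + 1) over 9 values, the 3 lineages in 3 libraries. The 9 values share libraries and are dominated by the lineage steps, so the correlations are given as a description. Wif1 was most like Rcn3 (0.999), the basal keratin gene Krt17 and Spon2, Dkk3 most like Pla2g7 (0.996), the hemidesmosome collagen Col17a1 and the myosin kinase Mylk, and Wnt11 most like the tropomyosin Tpm2 (0.994), the Notch ligand Jag2 and the connexin Gja1. Wnt10a lay nearest Igfbp3 (0.996), Serpina3i and Nsg1, and Wnt6 nearest Fam212a (0.994), Adamts18 and Kirrel3. The nearest genes of Sfrp1 were Mmd (0.996), Cadm1 and Tmem47, and those of Wnt5b were Cdk6 (0.987), Slc43a2 and Tgfb3. For the ML ligands they were Rptoros (0.986), Hpcal1 and Sbk2 for Wnt4, Ktn1 (0.998), Hs3st6 and Kif5c for Wnt5a, and Mapk12 (0.994), Lasp1 and Hagh for Wnt7b. No gene was named for more than 1 member.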

How the data were processed

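Single-cell RNA-seq of sorted mammary epithelium gave 4 deposited tables of raw counts of molecules per gene and cell. The authors made these counts with Cell Ranger 2.0 on mm10, per the labels, before deposit, and no further normalization of the deposited counts was found. The puberty table labelled 1 was used as the puberty library. Cells were seeded by 8 markers per lineage, scored on signatures of at most 100 genes and placed by relative score. Cells between LP and ML (Lum Int), mixed cells and cells of another type were kept apart, and no doublet caller was run. A cell of another type had at least 3 of 5 markers of that type. The mean of those markers also had to exceed that of Krt8, Krt18, Krt5 and Krt14, so cells with more keratin stayed in. Members, pathway genes, cell cycle, mitochondrial and ribosomal genes took no part.

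Counts were summed per lineage and library into 9 profiles, filtered with filterByExpr, scaled by TMM and fitted with edgeR 4.0.16 (R 4.3.3, limma 3.58.1) by the quasi-likelihood F test on lineage plus library, with Benjamini-Hochberg adjustment over all genes tested and a threshold of 0.01. Profiles of 1 library come from the same animals, so the library was the block. SE is the log2 difference over the square root of F. Levels are CPM of the class, intervals are 95% exact Poisson or Clopper-Pearson and cover counting error only, and depth per library is given with the results. Because the 3 libraries are stages, p-values measure the spread between them. Alternatives were DESeq2 1.42.0, other filters, thresholds and pseudocounts, no TMM, Leiden clusters (scanpy 1.11.5), the other puberty table or the sum of both, no cycling cells, a stricter cell filter (a minimum of 1000 genes and a mitochondrial share below 10%), thinning, leaving out each library and no library block. Pairwise lineage fits and the split of deeper cycling cells were chosen after seeing the data. Named genes were the members, the 5 pathway genes of smallest adjusted p per direction and fit, the 3 most alike genes of each member with at least 50 counts, and the markers. The members and the lists were chosen with earlier results of these data known. Gene positions are from GENCODE on GRCm38.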

Additional observations from a re-analysis of the deposited data

Results flagged for a closer look

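Sfrp1 had 10 counts in the 26 estrus cells that were left out as not epithelial, a signal in cells outside the comparisons. This came to 133.5 CPM (95% exact Poisson interval 64 to 245.6) in 7 cells, against 88.3 CPM in estrus basal cells. All 10 counts lay in the 16 of those cells with counts of at least 3 of 5 fibroblast markers. The cells left out at puberty held 2 Sfrp1 counts and those at diestrus 1.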

How the results depend on the processing

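Of the members' lineage fits under the alternatives, 265 kept direction and call, 13 turned direction and 2 gained a call. Those that turned were not called in the fit as reported, and all had a difference below 1 or a member with few luminal counts. Basal minus luminal, Wnt5b was -1.03 with Leiden clusters, -0.013 with the puberty tables summed, and -0.086 to 0.31 with a library left out. LP minus ML, Leiden clusters gave -0.19 for Wnt10a, -0.43 for Wif1 and -0.016 for Dkk3, and Wif1 was -0.16 with the second puberty table and -0.051 with the tables summed. With a library left out, LP minus ML ranged from -0.39 to 2.53 for Wnt10a, from -4.39 to 0.076 for Wnt11 (fitted values against LP libraries at 0 counts, which depend on the prior count and are no measure of size), from -0.060 to 0.72 for Wif1 and from -1.30 to 0.47 for Dkk3. The lowest values of Wnt10a and Dkk3 and the highest of Wnt11 came without puberty, and the lowest of Wif1 without diestrus. Wnt5a, basal minus luminal, was called with no filter on low counts (0.90, edgeR adjusted p = 0.00344) and at a threshold of 0.05. Without the library block (no replicate block) the genes called higher in luminal cells numbered 1248 in place of 2077, in LP cells 1030 in place of 1749 and in ML cells 736 in place of 1496, and no member's call changed. Leaving out a library gave 1115 to 1194 genes higher in LP and 989 to 1047 higher in ML cells. Pairs at least 2-fold higher at diestrus than estrus numbered 3 with no filter, 1 with Leiden clusters and 1 with the stricter cell filter, and pairs lower numbered 1 with no TMM, 1 with no filter, 1 with that cell filter and 2 with thinning. Pairs higher at puberty than estrus numbered 1 with no filter and 1 with Leiden clusters, and pairs lower numbered 0 with a pseudocount of 5 CPM, 0 with a minimum of 50 CPM and 3 with the cell filter. Pairs lower at puberty than diestrus numbered 1 with no TMM, 1 with no filter and 2 with the cell filter. ML ligands with a higher share in Pgr-positive cells numbered 3 at the deposited depth. The pairs that crossed 2-fold between estrus and diestrus included Wnt10a in basal cells with Leiden clusters (1.002) and the cell filter (1.04), and Dkk3 with no TMM (-1.07), the cell filter (-1.03) and thinning (-1.15). Of the single stage ratios 14 moved beyond counting error and 359 did not, and of the shares of cells 36 moved and 54 did not. Of the cycling ratios 10 moved and 23 did not when limited to cells with at least 5000 counts. The causes were not tested. Counts under about 10 CPM, as for Wnt11, limit what can be read.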

Other observations

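Luminal cells between the LP and ML positions (227 at puberty, 110 at estrus and 93 at diestrus) held the ligands of both luminal lineages. Wnt4 stood at 39.8, 47 and 76.4 CPM, Wnt5a at 59.8, 60.8 and 27.5 CPM and Wnt7b at 23.9, 42.8 and 26 CPM in these cells, and Wnt5b at 64.4, 128.5 and 90.2 CPM. Their median counts, 6279, 6099 and 7051, were above those of both luminal lineages, and no doublet caller was run. Wnt6, Wnt10a, Wnt11, Wif1 and Dkk3 had 0 to 2 counts each in them.

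In thinned basal cells, Sfrp1 and Dkk3 were detected together in 5 cells at puberty, 38 at estrus and 14 at diestrus, where the product of their shares gives 6.14, 25.9 and 7.03 cells. Wnt6 and Wnt10a were detected together in 12, 14 and 20 basal cells, where it gives 9.73, 11.8 and 18.3. Wnt10a and Wif1 were found together in 26, 27 and 26 basal cells, where it gives 27.3, 35.2 and 43.4. These counts are descriptions, since cells differ in what they hold and no test was run.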
